A study of Mus musculus with 6 samples.

Results

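Keratins, claudins and epithelial junction proteins were examined in KPC001, a pancreatic cancer cell line from a KPC mouse, as 44 genes chosen by symbol. Probes on the bead arrays were counted as members where the platform annotation gave them 1 of these symbols. There were 69 such probes for 43 of the genes, out of 45281 probes on the array, and the annotation named no probe for Dsp (desmoplakin). The data comprised 6 arrays with 1 colour, 3 from the CD133+ and 3 from the CD133- population of the line, both untreated and grown in high-glucose medium with 10% serum. CD133 is a membrane glycoprotein encoded by Prom1 and often used to sort tumour-initiating cells, and the labels give that description to both populations. KPC mice are a genetically engineered model that develops pancreatic tumours. The labels name neither the alleles of this line, nor whether it is 1 clone, nor how the populations were separated, nor whether replicates came from separate cultures, so the p-values reflect the spread among 3 arrays a group, and that spread may be technical. The study's question was how gene expression changes between the populations.

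Keratins are the intermediate filament proteins of epithelial cells and assemble as pairs of an acidic type I and a basic type II chain. Krt8 with Krt18 is the pair typical of simple epithelia, Krt7 and Krt19 are added in ducts, and Krt5 with Krt14 is the pair of basal and stratified layers. The filaments are anchored at desmosomes, while claudins, occludin and their scaffold proteins form tight junctions, cadherins and catenins form adherens junctions, and connexins form gap junctions. Pancreatic ductal cancers keep duct keratins, and loss of junction proteins is a textbook feature of their less differentiated forms.

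A probe was called detected on an array at a detection p under 0.05, and probes detected on 3 or more of the 6 arrays were tested. Between 37.8% and 39.9% of all probes were detected on an array, with a median of 37 to 41 beads behind each value. Of the 69 member probes 37 were tested, for 28 genes, and 31 of these were detected on all 6 arrays. Of the other 32, 24 were detected on no array and 8 on 1. Each array detected 35 to 39 of the 69 probes, 35 to 38 in CD133- and 36 to 39 in CD133+. Genes with a tested probe made up 65.1% of the 43 genes with a probe, against 49.5% of all 19057 named genes. None of the 3 probes of Prom1 was detected on any array, so its transcript does not check the labels.

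Both populations gave signal for a simple, ductal keratin set and for a part of each kind of junction. Krt7, Krt8, Krt18, Krt19, Krt20 and Krt23 were detected on every array, as were the claudins Cldn2, Cldn6, Cldn12 and Cldn18, the desmosome genes Pkp2 and Ppl, the catenins Ctnna1 and Ctnnd1, and the connexin Gja1. No tested probe reached the threshold between CD133+ and CD133- cells, a Benjamini-Hochberg adjusted p under 0.05 from limma over all 17219 tested probes. The count was 0 of 37 beside a background of 1.53% of all tested probes. At an unadjusted p under 0.05 there were 3 of 37 (8.11%), for Cldn2, Cldn6 and Krt18, beside 16.6% of all tested probes.

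**Figure D1:**
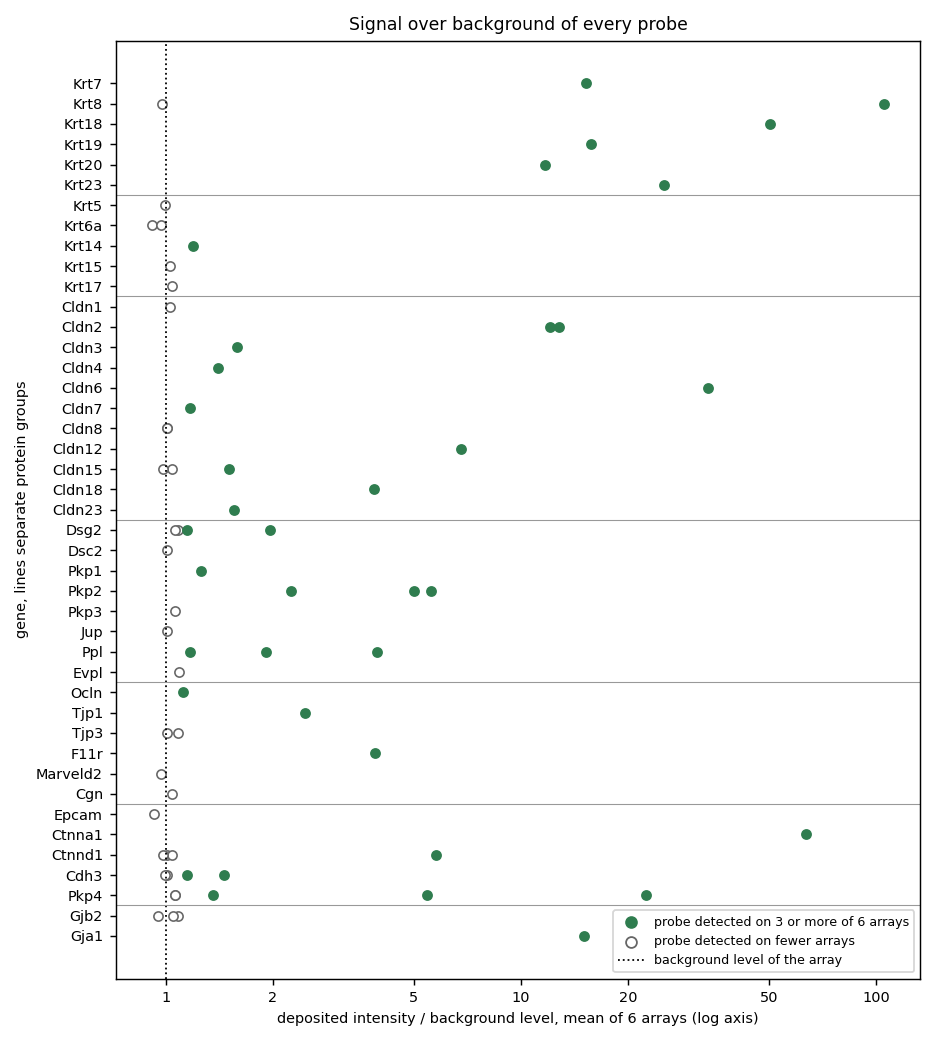
Deposited intensity divided by the array's background level (the median of probes not detected on that array), mean of 6 arrays, on a log axis, for each of the 69 probes by gene. Filled points are the 37 probes detected on 3 or more arrays and open points the other 32, which lie between 0.917 and 1.09 times background, while 12 filled points lie above 10 times.

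Levels are given as log2 intensity after background correction and quantile normalization, or as the deposited intensity over the array's background level, the median of probes not detected there. A probe detected on no array had a median log2 intensity of 4.43 to 4.44. Probes differ in how brightly they report a transcript, so levels of different probes were not set against each other. In these bulk samples, fewer cells expressing a gene and less RNA per cell cannot be told apart.

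Among the simple epithelial keratins, Krt8, the type II partner of Krt18, had log2 intensities of 13.52, 13.54 and 13.62 in CD133- replicates 1 to 3 and 13.44, 13.51 and 13.56 in the CD133+ replicates. The groups overlapped, and the difference, CD133+ minus CD133- here and throughout, was -0.06 ± 0.08 (SE of the fit, n = 3 per group; 95% interval -0.25 to 0.14; limma adjusted p = 0.788). Its signal was 105 times background. A second Krt8 probe, annotated to the same transcript, was not detected on any array, at 4.44 ± 0.16 (SD, n = 3) in CD133- and 4.39 ± 0.06 in CD133+.

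Krt18, the type I partner, had 12.61, 12.54 and 12.50 in CD133- cells and 12.33, 12.40 and 12.29 in CD133+ cells, about 50.1 times background. All 3 CD133+ arrays lay below all 3 CD133- arrays. The difference was -0.21 ± 0.08 (95% interval -0.40 to -0.02; unadjusted p = 0.0355), or 1.16-fold, and it did not pass after adjustment over all probes (adjusted p = 0.259). Of 15 alternatives, it passed only with a variance trend and robust estimation (adjusted p = 0.0285).

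Krt7, a type II keratin of ducts, had 10.80, 10.65 and 10.78 in CD133- cells and 10.66, 10.54 and 10.53 in CD133+ cells. The highest CD133+ array lay just above the lowest CD133- array, and the difference was -0.17 ± 0.09 (95% interval -0.37 to 0.04; adjusted p = 0.4). Krt19, the type I keratin of duct cells, had 10.66, 10.83 and 10.88 against 10.63, 10.79 and 10.49. Its groups overlapped, with CD133+ replicate 3 lowest, and the difference was -0.16 ± 0.11 (95% interval -0.41 to 0.10; adjusted p = 0.531). Both genes gave signals near 15 times background, 15.2 for Krt7 and 15.7 for Krt19.

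Krt20, a keratin of gut epithelium that also occurs in pancreatic cancers, lay between 10.17 and 10.38 over the 6 arrays. Krt23, a type I keratin found in several adenocarcinomas, lay between 11.33 and 11.54. In both genes the ranges of the populations overlapped.

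Among the keratins of the set, those of stratified and basal epithelium were at background, apart from Krt14. Keratins outside the set, Krt10 among them, are given below. Krt5, Krt6a, Krt15 and Krt17 were not detected on any array by any of their 5 probes, whose log2 intensities stayed between 4.18 and 4.80. Krt14, the type I chain of basal cells, was detected on 5 of 6 arrays at 1.19 times background, with 5.33, 5.29 and 5.21 in CD133- and 5.48, 4.89 and 4.96 in CD133+ cells. The CD133+ arrays lay on both sides of the CD133- arrays. Its partner Krt5 had 4.46 ± 0.02 (SD, n = 3) and 4.45 ± 0.06. Krt6a has a near-identical copy, Krt6b, whose signal a probe may share.

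Differences of all 7 tested keratin probes were below 0, between -0.21 and -0.05 with a median of -0.16, beside 53.7% of all tested probes below 0 and a median of -0.02. None of the 7 passed. The size of that median depended on the background step and on single arrays. It was -0.07 without background correction and with normal-exponential correction without negative controls, and -0.06 with the authors' intensities, where Krt8 had 0.01 and the other 6 were below 0. It was -0.07 without CD133+ replicate 2 and -0.09 without CD133+ replicate 3, and without CD133- replicate 3 only 6 of the 7 were below 0. With a median shift in place of quantile normalization, which moved the median of all tested probes to -0.13, the keratin median was -0.24. Of 14 further keratins outside the set, 6 were tested with 7 probes. None passed, 6 of the 7 probes were below 0, and the median was -0.23. That median was -0.07 without background correction, -0.11 with normal-exponential correction without negative controls, -0.08 with the authors' intensities and -0.14 without CD133+ replicate 3. The Krt10 probe was at 2.5 times background and the others between 1.12 and 1.22 times. Krt13, Krt79 and Krt12 on ILMN_2687011 were detected on more CD133- than CD133+ arrays, and Krt84 and Krt12 on ILMN_2865527 on fewer. With detection at 0.01 on all arrays only the Krt10 probe was left, at -0.27.

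**Figure D2:**
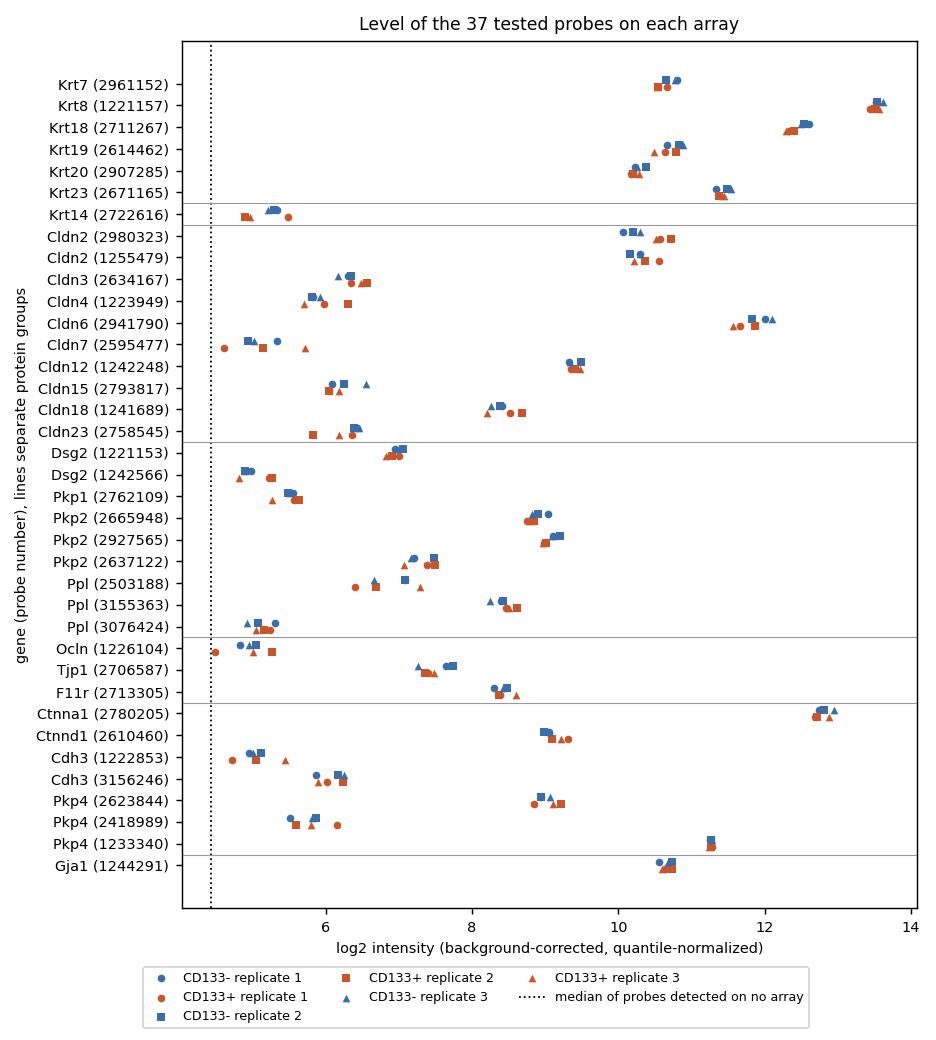
Log2 intensity on each of the 6 arrays for the 37 tested probes, grouped by kind of protein. Blue marks CD133- and orange CD133+ arrays, the shape gives the replicate, and the dotted line is the median of probes detected on no array. Krt18 and the first Cldn2 probe show groups that do not overlap, whereas the arrays of Pkp4 probe ILMN_1233340 lie within 11.24 to 11.28.

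Detected and undetected keratins lay side by side in the genome. In the RefSeq gene order of GRCm38.p6, used here only for neighbours since the files name no build, Krt8 is next to Krt18 and Krt20 is next to Krt23, and all 4 were detected on every array. Krt19 is next to Krt15, of which only Krt19 was detected. Krt5 and Krt6a are neighbours and neither was detected.

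Claudins span the membrane and set what passes between cells. Of the 11 claudin genes 9 were tested with 10 probes, and Cldn1 and Cldn8 were not detected by any probe. Cldn2, which forms pores for cations and water in leaky epithelia, was measured by a pair of probes annotated to the same transcript. On ILMN_2980323 it had 10.06, 10.20 and 10.29 in CD133- cells and 10.57, 10.72 and 10.52 in CD133+ cells. All CD133+ arrays lay above all CD133- arrays. The difference was 0.42 ± 0.10, a 1.34-fold higher level (95% interval 0.19 to 0.65; unadjusted p = 0.00327), with an adjusted p of 0.0924.

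That Cldn2 value passed in 5 of 15 alternatives. Among these, the adjusted p was 0.000461 and the difference 0.39 without background correction, and 0.000264 and 0.40 with the authors' intensities. The difference was 0.26 with a median shift, where it did not pass (adjusted p = 0.263). On ILMN_1255479, Cldn2 had 10.29, 10.16 and 10.29 in CD133- and 10.56, 10.37 and 10.21 in CD133+ cells. There the groups overlapped and the difference was 0.13 ± 0.11 (95% interval -0.13 to 0.39; adjusted p = 0.616). The mean of both probes gave an unadjusted p under 0.05 and did not pass after adjustment.

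Cldn6, a claudin of embryonic epithelia, had 12.00, 11.82 and 12.10 in CD133- cells and 11.66, 11.87 and 11.57 in CD133+ cells, at 33.6 times background. The groups overlapped, since CD133+ replicate 2 exceeded CD133- replicate 2. The difference was -0.28 ± 0.12 (95% interval -0.55 to -0.01; unadjusted p = 0.0454) with an adjusted p of 0.287. Cldn6 passed in 3 of 15 alternatives: without background correction (-0.27, adjusted p = 0.0297), with the authors' intensities (-0.26, adjusted p = 0.0348) and with a variance trend (adjusted p = 0.0162).

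Cldn3 and Cldn4, sealing claudins that are often abundant in pancreatic cancers, were close to background. Cldn4 had 5.83, 5.81 and 5.92 against 5.98, 6.31 and 5.70, at 1.4 times background. Its CD133+ arrays spread around the CD133- arrays, with a difference of 0.15 ± 0.15 (95% interval -0.20 to 0.50; adjusted p = 0.678). Cldn3, its neighbour in the genome, had 6.30, 6.34 and 6.17 in CD133- and 6.35, 6.56 and 6.48 in CD133+ cells. All CD133+ values of Cldn3 were the higher ones.

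Cldn7, a claudin of lateral membranes that binds Epcam, was detected on 5 of 6 arrays with 5.34, 4.94 and 5.02 against 4.61, 5.14 and 5.72. CD133+ replicate 1 was the lowest and CD133+ replicate 3 the highest of the 6. The difference was 0.06 ± 0.26 (95% interval -0.55 to 0.67; adjusted p = 0.94). Of the other claudins, Cldn12 lay between 9.32 and 9.49 and Cldn18, whose isoforms serve lung and stomach, between 8.20 and 8.68. Cldn15 was detected on all arrays by 1 of its 3 probes, at 1.51 times background, while the other 2 were not tested and lay at 1.04 and 0.982 times it. The single probe of Cldn23 was at 1.56 times background. Cldn23 had 6.43, 6.39 and 6.46 in CD133- and 6.36, 5.83 and 6.18 in CD133+ cells, with all CD133+ values below.

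In desmosomes, the cadherins Dsg2 and Dsc2 reach across to the next cell, plakophilins and plakoglobin (Jup) sit under the membrane, and the plakins Ppl (periplakin) and Evpl (envoplakin) tie to keratin. Of 8 genes with a probe 4 were tested, Dsg2, Pkp1, Pkp2 and Ppl. Dsc2, Pkp3 and Jup were not detected on any array and Evpl was detected on 1. Jup, which also serves adherens junctions, had 4.54 ± 0.16 (SD, n = 3) in CD133- and 4.47 ± 0.18 in CD133+ cells on its single probe.

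Pkp2, the plakophilin of simple epithelia and heart, was detected on all arrays by all 3 of its probes. On ILMN_2927565 it had 9.10, 9.20 and 9.09 in CD133- and 8.98, 9.01 and 8.97 in CD133+ cells. Here the CD133+ arrays were all lower, whereas on its other 2 probes the groups overlapped. Ppl likewise had 3 tested probes. On ILMN_3155363 the values were 8.40, 8.42 and 8.25 against 8.47, 8.62 and 8.51, all CD133+ arrays being higher. On ILMN_2503188 they were 7.08, 7.08 and 6.66 against 6.40, 6.68 and 7.29, where the groups overlapped. The populations overlapped too on ILMN_3076424, which was detected on 5 arrays at 1.17 times background.

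Dsg2, the desmoglein of simple epithelia, was detected on all arrays by 1 of its 4 probes, with values between 6.82 and 7.06, at 1.96 times background. A second probe was detected on 4 arrays and the other 2 on 1 array each. Pkp1, a plakophilin of stratified epithelia, lay between 5.27 and 5.63. In these desmosome genes, 5 of 9 tested probes were below 0 and 4 above, with a median difference of -0.03, and none passed.

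Besides claudins, 3 of 6 tight junction genes were tested. Tjp1 (ZO-1), the scaffold that links claudins and occludin to actin, had 7.65, 7.74 and 7.26 in CD133- and 7.40, 7.35 and 7.48 in CD133+ cells. The groups overlapped, and the difference was -0.14 ± 0.13 (95% interval -0.45 to 0.18; adjusted p = 0.664). F11r (JAM-A), an immunoglobulin-type adhesion molecule, lay between 8.30 and 8.60.

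Ocln, occludin itself, was detected on 4 of 6 arrays, 2 in each population, and lay at 1.12 times background with 4.83, 5.04 and 4.95 against 4.49, 5.26 and 5.0. The CD133+ arrays held both the lowest and the highest value, and the difference was -0.03 ± 0.19 (95% interval -0.46 to 0.41; adjusted p = 0.966). Marveld2 (tricellulin), which seals the corners where cells meet and is the neighbour of Ocln in the genome, was not detected on any array. Nor was Cgn (cingulin), while 1 of the 2 probes of Tjp3 (ZO-3) was detected on 1 array.

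At adherens junctions, Ctnna1 (alpha-catenin), which couples cadherins to actin, lay between 12.69 and 12.95 on the 6 arrays, at 63.5 times background. Ctnnd1 (p120-catenin), which keeps cadherins at the membrane, was detected by 1 of 4 probes. That probe had 9.05, 8.98 and 9.07 in CD133- and 9.31, 9.09 and 9.21 in CD133+ cells, with all CD133+ arrays higher. The difference was 0.17 ± 0.09 (95% interval -0.04 to 0.38; adjusted p = 0.393), and it was 0.01 with a median shift. The 3 other Ctnnd1 probes were detected on no array, and the 4 probes were annotated to 2 transcripts.

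Cdh3 (P-cadherin), a classical cadherin of basal epithelium, was close to background. Its brighter probe had 5.86, 6.17 and 6.25 against 6.02, 6.23 and 5.90, at 1.46 times background. These groups overlapped, and the difference was -0.04 ± 0.13 (95% interval -0.36 to 0.27; adjusted p = 0.905). Pkp4 (p0071), an armadillo protein related to p120-catenin, had 11.25, 11.27 and 11.28 in CD133- and 11.28, 11.26 and 11.24 in CD133+ cells on ILMN_1233340. Those 6 arrays agreed within 0.02 (SD) in each population. Of its 5 probes 3 were tested, over 3 annotated transcripts.

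Epcam, a surface adhesion protein of most carcinomas, was not detected on any array. Its single probe had 4.35, 4.24 and 4.36 in CD133- and 4.28, 4.40 and 4.32 in CD133+ cells, at 0.928 times background. Cdh1 (E-cadherin), the neighbour of Cdh3 in the genome and not itself a member, was detected on all arrays, with 10.03, 10.10 and 9.95 against 9.64, 9.94 and 10.13 on ILMN_2628629. A dimmer Cdh1 probe, ILMN_1227162, had 4.79, 4.54 and 4.77 in CD133- and 5.05, 5.02 and 5.53 in CD133+ cells. It was detected on no CD133- array and on all 3 CD133+ arrays, so only the CD133+ arrays took it past the filter, and its difference is not given as a result.

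For gap junctions, Gja1 (connexin 43) was detected and Gjb2 (connexin 26) was not. Gja1 had 10.55, 10.73 and 10.68 in CD133- and 10.63, 10.73 and 10.60 in CD133+ cells. The groups overlapped almost fully, and the difference was -0.00 ± 0.09 (95% interval -0.21 to 0.21; adjusted p = 0.997). The 3 Gjb2 probes were detected on 1 array at most, with 4.80 ± 0.14 (SD, n = 3) against 4.72 ± 0.39 on the one that was.

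**Figure D3:**
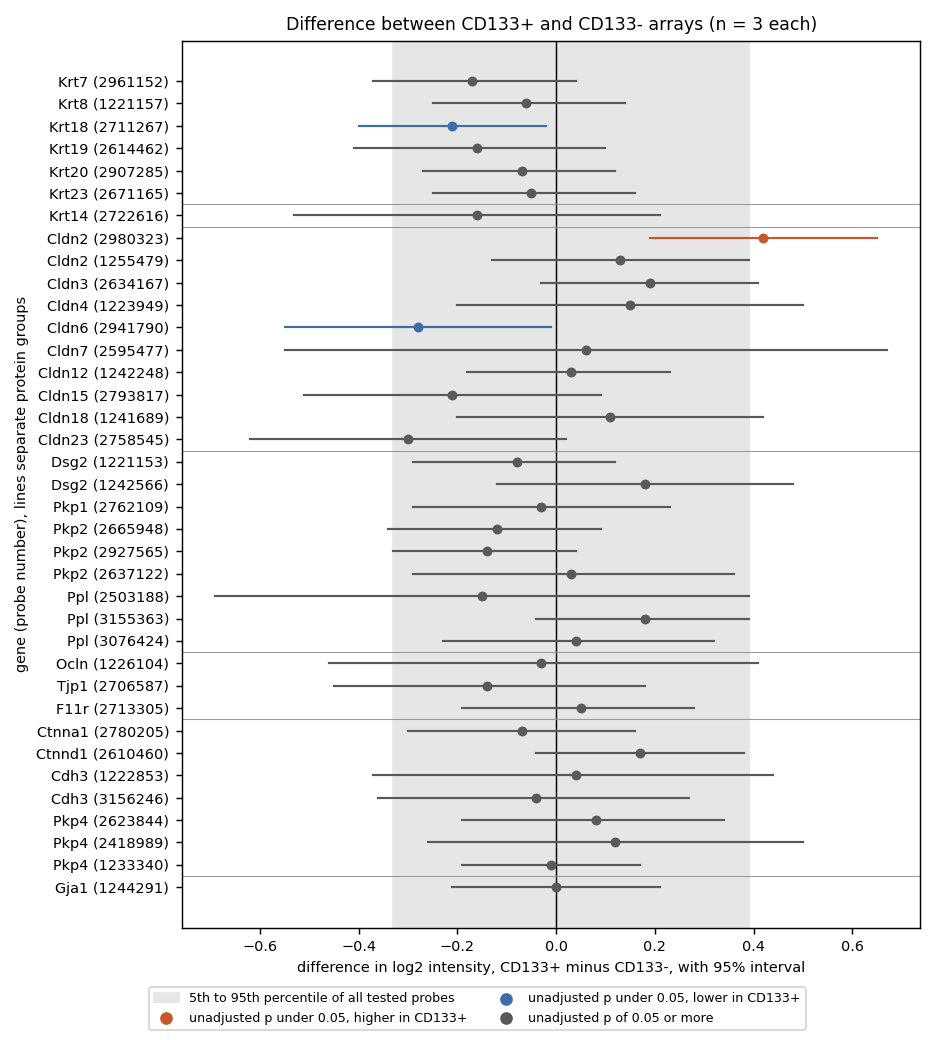
Difference in log2 intensity, CD133+ minus CD133- (n = 3 arrays each), with its 95% interval from limma, for the 37 tested probes. The grey band spans the 5th to 95th percentile of all tested probes, -0.33 to 0.39, and coloured points have an unadjusted p under 0.05. The first Cldn2 probe, at 0.42, lies outside the band.

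Over all members, 21 of 37 differences were below 0, with a median of -0.03 and a range from -0.30 to 0.42. The populations did not overlap for 7 of 37 probes (18.9%), beside 23.1% of all tested probes. These were Cldn2, Cldn3, Ctnnd1 and Ppl, higher in CD133+ cells, and Krt18, Cldn23 and Pkp2, lower, with 1 probe each (11.5% and 11.6% over the tested probes, respectively). Cldn3, Ppl, Cldn23 and Pkp2 were named in this way after their values were seen. The standard deviation within a population had a median of 0.13 over the 37 probes, and of 0.14 over all tested probes. It was 0.08 for the 20 member probes with a mean log2 intensity of at least 8 and 0.19 for the 17 dimmer ones.

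Probes of a gene often did not give the same reading. Of 13 member genes with several probes, 3 had all their probes tested, 4 had none and 6 had some tested and some not, among them Krt8, Dsg2 and Ctnnd1. An undetected probe is therefore a statement about that probe, and 11 of the 15 genes without a tested probe rested on 1 probe. Probe sequences were not used here.

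Further genes of the same families were described from a list of 84, of which 70 had a probe and 36 were tested with 69 probes. One of the 69 probes passed, beside the background of 1.53% of all tested probes. It belongs to Pvr, the poliovirus receptor, a nectin-like adhesion molecule and immune ligand. On ILMN_1223299, at 1.57 times background, Pvr had 5.82, 5.70 and 5.74 in CD133- and 6.91, 6.63 and 6.73 in CD133+ cells. All CD133+ arrays were higher, by 1.0 ± 0.10 (2-fold, adjusted p = 0.0124). Its other 3 tested probes, at 1.35, 2.86 and 2.72 times background, gave -0.21 ± 0.14, -0.07 ± 0.10 and 0.01 ± 0.10. The 4 probes were annotated to 2 transcripts. The difference on ILMN_1223299 was 0.44 when the background was left in and 0.45 on the authors' own intensities. The mean of the 4 probes gave 0.18 (adjusted p = 0.261). The adjusted p rose to 0.0821 without CD133- replicate 1, 0.065 without CD133+ replicate 1, 0.0591 without CD133- replicate 2, 0.0625 without CD133- replicate 3 and 0.0663 without CD133+ replicate 3, and the probe passed without CD133+ replicate 2. At an unadjusted p under 0.05, 7 of the 69 probes were higher and 9 lower, 2 groups that for all tested probes made up 9.08% and 7.53%. Among the 7 is Cdh1 probe ILMN_1227162, which only the CD133+ arrays took past the filter.

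Most markers of other cell types were not detected on enough arrays to be tested. Of those with a probe, 2 of 6 leukocyte, 1 of 6 endothelial, 2 of 8 fibroblast and stellate, and 1 of 8 acinar and endocrine genes were tested. Ptprc, Pecam1, Pdgfra and Cpa1 were among those not tested. On all 6 arrays, however, Col1a1 (a collagen chain of fibroblasts) was detected at 1.99 times background on its single probe, Acta2 (smooth muscle actin) at 1.76 times on the brightest of its 6 probes and Cela1 (an acinar elastase) at 1.77 times on 1 of its 2 probes. Col1a1 had 7.14, 7.14 and 7.06 in CD133- and 7.03, 6.93 and 6.57 in CD133+ cells, all CD133+ arrays being lower (-0.27 ± 0.13; limma adjusted p = 0.348). In the same list, Acta2 on ILMN_2710354 went the other way, all CD133+ arrays being higher (0.29 ± 0.14; limma adjusted p = 0.362). That probe was at 1.17 times background, and on the other tested Acta2 probes the groups overlapped. The leukocyte gene Fcer1g, at 1.11 times background, was detected on all 3 CD133- and on no CD133+ array. Only the CD133- arrays took it past the filter, so its difference is not given as a result. The mean signal over the probes of each list was 0.981 to 1.16 times background on CD133- and 0.988 to 1.12 times on CD133+ arrays. These means and the next ones use deposited intensities, divided by the array's background level but not quantile-normalized. Their ranges are therefore not a test between the populations. Epithelial markers had 6 of 7 genes tested, all but Epcam, with a mean of 20.7 to 23.6 times background on CD133- and 19.1 to 19.7 on CD133+ arrays. Krt8 at 105 and Krt18 at 50.1 times led that mean, while Cldn4 was at 1.4, Cldn7 at 1.17 and Epcam at 0.928 times. After quantile normalization Krt8 had a difference of -0.06 ± 0.08 and Krt18 of -0.21 ± 0.08 (limma adjusted p = 0.788 and 0.259). Genes of the mesenchymal state had 7 of 8 tested, Vim among them, with a mean of 5.57 to 6.16 and 5.32 to 5.82 times background. There the brightest probes were of Vim at 50.1 and Fn1 at 23.2 times, while the Cdh2 probes were at 1.08 and 1.05 times. On that Fn1 probe all CD133+ arrays were higher (0.28 ± 0.09; limma adjusted p = 0.165), while on that Vim probe the groups overlapped. None of these marker probes passed, and their part in the values above was not tested.

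**Figure D4:**
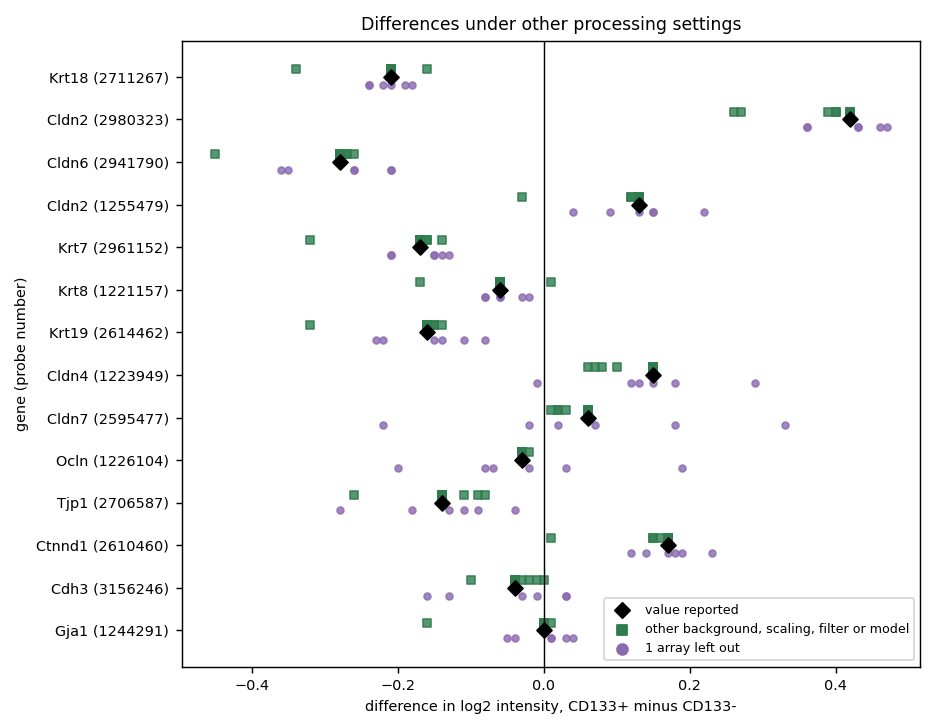
Differences, CD133+ minus CD133-, in log2 intensity for the members given with a test, as reported (diamonds), under other background, scaling, filter or model settings (squares) and with 1 array left out (circles). Krt18, Cldn6, Krt7 and Krt19 stay below 0 and Cldn2 on ILMN_2980323 stays above 0 throughout, while Gja1 and Cdh3 lie on both sides.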

How the data were processed

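RNA from 3 CD133+ and 3 CD133- samples of KPC001 was amplified to biotinylated cRNA and hybridised to Illumina mouse bead arrays, per the labels' protocols. The deposited table, per the file headers, has 45281 probes, each with a mean bead intensity, a detection p-value, a bead standard error and a bead count. The deposited intensities were not normalized. A second table held the authors' processed intensity on a linear scale without gene centring, with medians of 118.7 to 120.5 and the same rank order on each array. The sources used here do not give its method. Slide and scan date were not used here.

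Intensities were corrected and normalized with neqc of limma 3.58.1 in R 4.3.3 (offset 16), which compresses differences of dim probes. The 17219 probes detected (p under 0.05) on 3 or more arrays were fitted with lmFit and eBayes without covariates, two-sided, and adjusted over all of them. The fit was tested on simulated data. The number of arrays limits precision, with a median standard error of 0.112. The platform annotation supplied the symbols and may be outdated: 34885 probes had 1, 18 had several and 10378 are unnamed here. Of these symbols 34807 were found in the RefSeq table and 0 changed. The replicate number came from the title, and a title without one was taken as replicate 1.

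Differences with a test were to be given for member probes with an unadjusted p under 0.05, the other tested probes of those genes, and the brightest tested probe of 14 listed genes, of which Dsp, Jup and Epcam had none. Of further family genes, those that passed were to be named. Members, lists and tests were chosen with earlier results of these data known.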

Additional observations from a re-analysis of the deposited data

How the results depend on the processing

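All alternatives were planned. The count of 264 probes that passed was 1110 without background correction, 734 with normal-exponential correction without negative controls, 37 with a median shift, 1157 with the authors' intensities, 113 without a filter, 555 with detection at 0.01 on all arrays, 1096 with a variance trend and robust estimation, 102 with probes of a gene averaged, 6 with the replicate block, and 7 to 14 with 1 array left out. Of these, 216 were higher and 48 lower, against 748 and 362 with the background left in and 25 and 12 with a median shift. The count of member probes that passed, 0 of 37, was 2 without background correction, 1 with normal-exponential correction, 2 with the authors' intensities, 1 of 31 with detection at 0.01 and 3 with a variance trend, and 0 in the others. These stand beside 1110, 734 and 1157 of 17219 tested probes, 555 of 13339 with detection at 0.01, and 1096 of 17219. Member probes at an unadjusted p under 0.05, 3, were 5 without background correction, 4 with detection at 0.01, 6 each with a median shift, the authors' intensities and a variance trend, 1 with the replicate block (Cldn2), and 2 to 3 with 1 array left out. The share of all tested probes at this level, 16.6%, was 19.1%, 20.1%, 19.1%, 19%, 18.9% and 16% in these settings in turn. With 1 array left out it was 14% to 15.4%. Over the 6 fits with 1 array left out, Cldn2 was always among the member probes at this level, Cldn6 and Krt18 in 2 each, and Cldn15, Cldn23, Krt14, Tjp1 and Dsg2 in 1 each. With a median shift, Krt18 had -0.34, Cldn6 -0.45 and Krt19 -0.32. Signs turned for Cldn2 on ILMN_1255479 with a median shift (-0.03), for Pvr on ILMN_2972585 there (-0.12), and for Krt8 (0.01) and Gja1 (0.01) with the authors' intensities. With 1 array left out, signs turned for Cldn4 (-0.01 to 0.29), Cldn7 (-0.22 to 0.33), Ocln (-0.20 to 0.19), Cdh3 (-0.16 to 0.03), Gja1 (-0.05 to 0.04) and Pvr on ILMN_2627296 (-0.16 to 0.00) and ILMN_2972585 (-0.05 to 0.06), none of which passed. Beyond fewer probes or arrays in a fit, the cause was not tested. Same-numbered arrays of both populations had deviations that correlated at 0.020, 0.0018 and 0.018 over the tested probes. Pairs of arrays with unlike numbers lay between -0.050 and 0.033. Deviations from means of 3 arrays cannot tell whether same-numbered arrays had a common origin, and the main fit used no pairing. With the replicate block Pvr had an adjusted p of 0.1.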
